A study of Mus musculus with 6 samples.

Results

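Neutrophil granule and alarmin genes were described here as a set of 10 genes, chosen by name out of the 16557 genes listed in at least 1 of the 6 tumor tables. The set holds 2 alarmin genes (S100a8 and S100a9), 4 specific granule genes (Ltf, Lcn2, Camp and Ngp) and 4 azurophil granule genes (Mpo, Elane, Prtn3 and Ctsg). A gene that a table does not list was counted as 0 in that tumor. 

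The single-cell RNA-seq data came from 6 rhabdoid tumors of different mice, 3 MYC spinal tumors, here MS1, MS2 and MS3 (mice aged 19, 26 and 17 weeks), and 3 extracranial rhabdoid tumors, here eRT1, eRT2 and eRT3 (mice aged 17, 29 and 22 weeks), numbered in the order of the deposit. All mice carried floxed Smarcb1 alleles, by the study's methods on a C57BL/6 background, and were exposed in utero to a single tamoxifen dose of 50 mg/kg given to the mother at 6.5 days after conception, which activates an inducible Cre. The labelled strain was Rosa26-cre, a ubiquitous driver, for the 3 MYC spinal tumors and for eRT1. It was Sox2-cre, driven in early embryonic and neural progenitor cells, for eRT2 and eRT3, so subtype and driver are partly confounded. Dissociated cells were sorted to remove debris, doublets and dead cells, with no cell type marker stated, no tumor-free tissue was analysed here, and every tumor is 1 animal. All 10 genes were listed for MS2 and MS3, 7 for eRT1 and eRT3, 5 for eRT2 and 4 for MS1. Because the tables list genes found in at least 3 cells, an unlisted gene may have been present in up to 2 cells.

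Neutrophils develop in the bone marrow from granulocyte progenitors and fill their granules in a fixed order. Azurophil granule proteins (myeloperoxidase and the serine proteases neutrophil elastase, proteinase 3 and cathepsin G) are made at the promyelocyte stage, and specific granule proteins (lactoferrin, lipocalin 2, the cathelicidin precursor and neutrophilic granule protein) later, at the myelocyte and metamyelocyte stage. S100a8 and S100a9 encode the subunits of calprotectin, an abundant cytosolic alarmin that stays high in mature neutrophils and is also made by inflammatory monocytes. Granule transcripts decline as neutrophils leave the marrow, while the proteins remain stored.

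Several of these genes lie close together in the genome (GRCm38, GENCODE annotation). S100a8 (chr3:90668978-90670035, plus strand) and S100a9 (chr3:90692632-90695721, minus strand) are 22596 bases apart, and Prtn3 (chr10:79874476-79883174) ends 3072 bases before Elane (chr10:79886247-79888215), both on the plus strand. Camp, Ngp and Ltf lie on chromosome 9, Lcn2 on chromosome 2, Mpo on chromosome 11 and Ctsg on chromosome 14, and all 10 genes are annotated as protein coding.

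Promoters of 4 genes are shown because they represent the pairs of stages the data separate, Elane and Prtn3 being highest in the granulocyte progenitor cluster and Ngp and Ltf in neutrophils. The windows hold 250 bases before and 50 bases from the RefSeq transcription start (GRCm38.p6, plus strand in all 4), with a RefSeq start of Prtn3 that lies inside the longer GENCODE gene, namely chr10:79886062-79886361 for Elane, chr10:79879417-79879716 for Prtn3, chr9:110419558-110419857 for Ngp and chr9:111019042-111019341 for Ltf. Capitals mark matches to GAGGAA, a core of the sites of PU.1, or to TTNNGCAA, a form of the sites of C/EBP factors, on either strand.
Elane: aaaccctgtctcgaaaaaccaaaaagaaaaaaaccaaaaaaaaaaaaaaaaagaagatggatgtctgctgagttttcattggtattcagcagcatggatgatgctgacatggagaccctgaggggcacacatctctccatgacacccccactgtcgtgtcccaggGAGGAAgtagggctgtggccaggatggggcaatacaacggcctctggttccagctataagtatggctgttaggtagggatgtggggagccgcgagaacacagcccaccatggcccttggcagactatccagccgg
Prtn3: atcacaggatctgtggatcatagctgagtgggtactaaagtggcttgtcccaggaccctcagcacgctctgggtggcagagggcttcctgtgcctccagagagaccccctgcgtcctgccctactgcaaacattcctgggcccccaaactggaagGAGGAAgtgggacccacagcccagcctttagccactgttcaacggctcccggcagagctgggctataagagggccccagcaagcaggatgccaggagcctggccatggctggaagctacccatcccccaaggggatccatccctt
Ngp: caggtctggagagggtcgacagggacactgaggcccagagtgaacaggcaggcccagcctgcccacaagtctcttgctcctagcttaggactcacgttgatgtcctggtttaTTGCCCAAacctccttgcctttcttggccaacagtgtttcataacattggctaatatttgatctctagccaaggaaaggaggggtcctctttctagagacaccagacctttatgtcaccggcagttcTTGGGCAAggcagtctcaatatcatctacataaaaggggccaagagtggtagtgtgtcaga
Ltf: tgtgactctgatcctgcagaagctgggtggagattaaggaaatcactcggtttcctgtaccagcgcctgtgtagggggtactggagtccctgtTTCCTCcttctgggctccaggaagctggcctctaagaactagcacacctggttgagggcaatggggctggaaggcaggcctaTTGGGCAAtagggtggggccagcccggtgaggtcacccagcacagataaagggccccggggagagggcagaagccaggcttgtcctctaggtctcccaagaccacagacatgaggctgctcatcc
Elane and Prtn3 each held 1 match to GAGGAA (reverse complement TTCCTC), at positions -85 and -95 from the start, and none to TTNNGCAA (reverse complement TTGCNNAA). Ngp held 2 matches to TTNNGCAA and none to GAGGAA, and Ltf held 1 of each, with no overlap between them. Among all 10 promoters GAGGAA was present in 7 (S100a8, Ltf, Lcn2, Mpo, Elane, Prtn3 and Ctsg), against 28.3% of 27025 mouse promoters of the same length, and TTNNGCAA was present in 4 (S100a9, Ltf, Lcn2 and Ngp), against 10.8%. These matches describe letters in a window and were tested for nothing else.

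The 6 tables gave 22163 cells, 1469 to 6740 per tumor, with 3841706 to 26184224 UMIs (unique molecular identifiers, each counting a captured transcript) per tumor and a median of 916 to 5211 UMIs per cell. Cells were clustered with the 10 genes left out of the variable genes, and clusters were named from other genes. Neutrophils numbered 1243 in MS2, 153 in MS3 and 201 in eRT2, but only 5, 4 and 3 in MS1, eRT1 and eRT3, which therefore entered no test in neutrophils. Of the 18 neutrophil markers, 16 were found in at least 10% of the neutrophils of MS2 and of MS3 and 14 in those of eRT2. Smarcb1, the deleted gene, gave 15 UMIs in immature and 7 in late neutrophils of the MYC spinal tumors and 1 in those of eRT, where 25.8, 22.1 and 8.83 would be expected from the immune cells of the same tumors, and tumor cells were named by the same ratio (under 0.25), so that their low Smarcb1 is no finding. Cells named progenitors were found in the MYC spinal integration, as a granulocyte progenitor cluster (293 cells in MS2 and 24 in MS3, with Ms4a3 in 78.2% and 91.7% of cells) and a second cluster (336 and 228 cells). In tumor MS3 the markers of the second cluster went against its name, since Cd34, Myb and Ms4a3 were found in 0 of its 228 cells and Kit in 0.439%, so values of the 10 genes and of the companion lists are also given without it.

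Neutrophils made up 0.340%, 21.6% and 2.27% of the cells of MS1, MS2 and MS3, and 0.187%, 9.84% and 0.0746% of the cells of eRT1, eRT2 and eRT3. The means, 8.08% ± 11.8 in MYC spinal tumors and 3.37% ± 5.61 in eRT (SD, n = 3 each), overlapped, and the difference of -4.71 percentage points gave p = 0.5 in an exact two-sided permutation test over 20 splits, which cannot go below 0.1. Without tumor MS2 the difference was 2.06 percentage points.

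The alarmin genes made up a large part of the transcripts of neutrophils. S100a8 reached 217640, 121411 and 61045 CPM (counts per 1000000 UMIs, pooling all cells of a kind from a tumor) in the neutrophils of MS2, MS3 and eRT2, and S100a9 reached 141504, 101882 and 49909 CPM. Both were found in 100% of the neutrophils of MS2 and eRT2 and in 152 of 153 neutrophils of MS3. Together they accounted for 35.9%, 22.3% and 11.1% of all neutrophil UMIs in these tumors, with a median of 36.6%, 21.5% and 10.1% in a cell and a range of 4.30% to 57.8%, 0% to 49.9% and 0.412% to 32.4%. Tumor eRT2 was thus lowest for both genes, although its cells overlapped with those of the MYC spinal tumors. The few neutrophils of eRT1 (4 cells) and eRT3 (3 cells) held S100a8 at 216202 and 211587 CPM, close to the level in MS2, whereas only 2 of the 5 cells named neutrophils in MS1 held S100a8 or S100a9 at all.

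Specific granule genes were high in the neutrophils of both MYC spinal tumors with enough cells. Camp, the precursor of the antimicrobial peptide CRAMP, reached 44878 and 29447 CPM in MS2 and MS3 and was found in 98.3% and 93.5% of neutrophils. Ngp, a cystatin-related granule protein, reached 19926 and 40324 CPM, Lcn2, which binds iron-carrying siderophores, 5199 and 8287 CPM, and Ltf, an iron-binding protein, 4047 and 4015 CPM. Camp was therefore higher in MS2 and Ngp in MS3, while Ltf differed by less than its counting error (95% Poisson intervals of 3945 to 4151 and 3800 to 4238 CPM). Nearly every neutrophil carried a specific granule transcript (99.5% in MS2 and 98.7% in MS3), and 86.1% and 85.6% carried all 4.

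The neutrophils of eRT2 lacked most of these transcripts. Camp is not listed in that table and was counted as 0 in 201 cells, Ngp had 6 UMIs in 4 cells and Ltf had 3 UMIs in 3 cells. Lcn2 was found in 65.7% of them, at 1709 CPM, and no cell carried all 4 specific granule genes. The 4 neutrophils of eRT1 and the 3 of eRT3 all held Ltf, Lcn2, Camp and Ngp, so the 3 eRT did not share the pattern of eRT2.

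Azurophil granule genes were low in neutrophils and present in a minority of cells. In MS2 and MS3, Mpo stood at 171 and 82.9 CPM, Elane at 499 and 501 CPM, Prtn3 at 294 and 544 CPM and Ctsg at 58.5 and 55.3 CPM. At least 1 of the 4 was found in 26.8% and 34.0% of the neutrophils of these tumors, and all 4 in 25 and 6 cells. These shares include background, which is given with the stages of neutrophils below. None was found in the neutrophils of the other 4 tumors, where 3 UMIs would correspond to 12.9 CPM in eRT2 but to 298, 398 and 945 CPM in MS1, eRT1 and eRT3, too high a limit to compare.

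**Figure D1:**
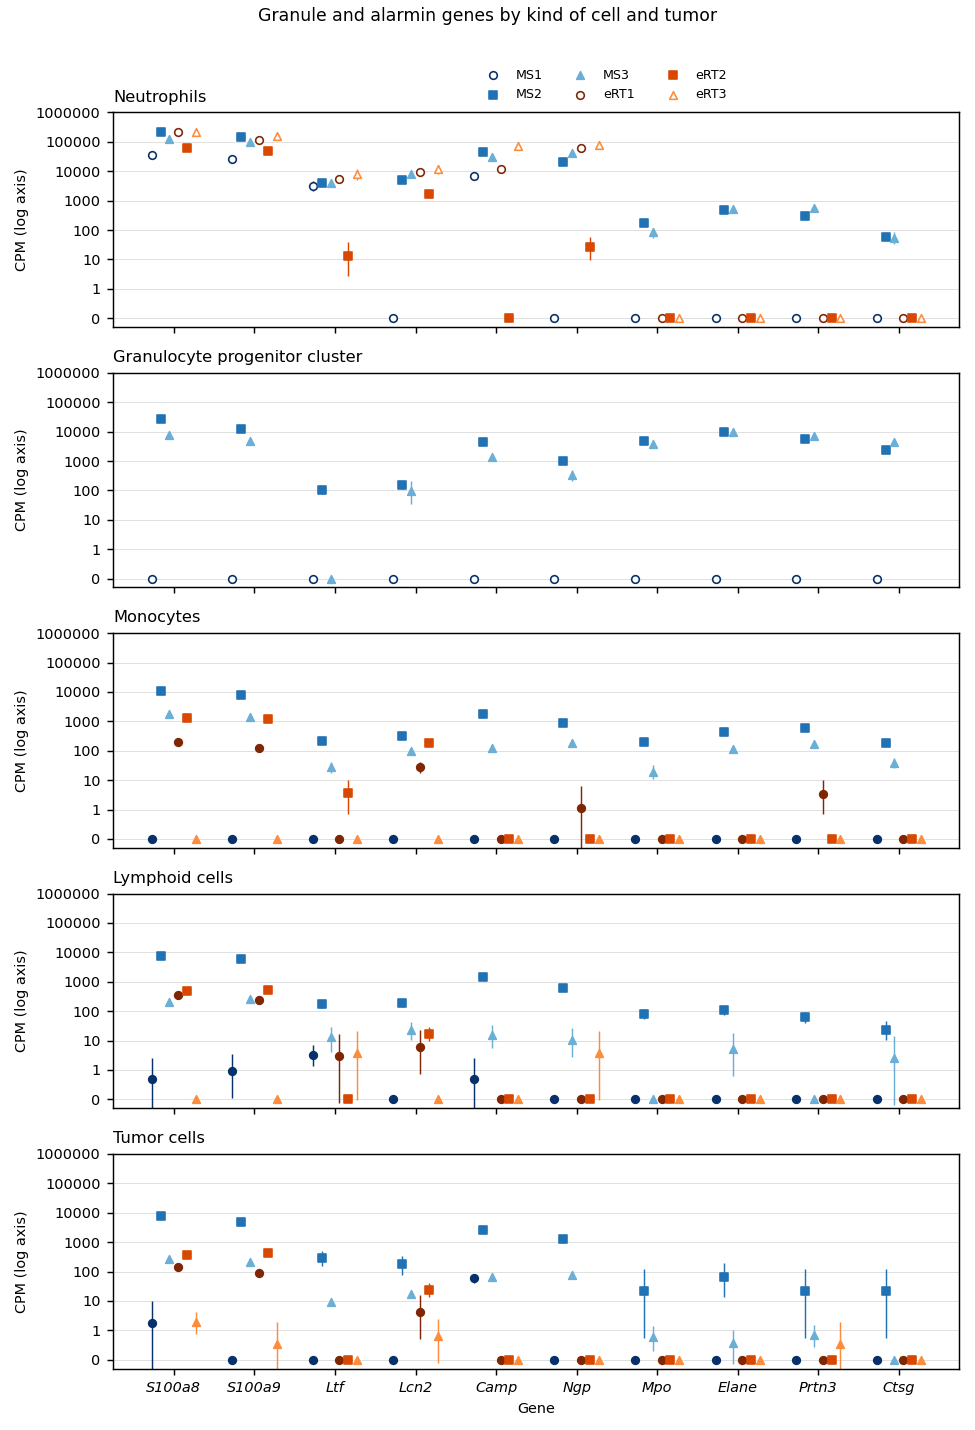
CPM of the 10 genes (log axis, with 0 drawn at the bottom tick) in neutrophils, the granulocyte progenitor cluster, monocytes, lymphoid cells and tumor cells, by tumor. Each point is the sum over the cells of a tumor, open where it rests on under 10 cells, and bars are 95% Poisson intervals, cut at the axis; the specific granule genes Ltf, Camp and Ngp of eRT2 stand far below those of MS2 and MS3, and the azurophil genes are highest in the progenitor cluster.

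Neutrophils were compared with monocytes of the same tumors in MS2, MS3 and eRT2, to ask in which myeloid cells the genes are highest. Of the 10 genes, 7 were higher in neutrophils (both alarmin genes, all 4 specific granule genes and Elane) and 0 were lower, while 8.52% of the 5279 genes tested were higher and 6.35% lower. The median log2 fold change was 5.52 over the 10 genes and -0.07 over all genes tested. S100a8 rose by 5.98 ± 0.43 and S100a9 by 5.92 ± 0.44 on the log2 scale (SE, edgeR adjusted p = 0.000112 and 0.000129). Camp was 6.87 ± 0.78 higher (edgeR adjusted p = 0.0015), an estimate that rests on the MYC spinal tumors, since eRT2 had 0 UMIs of Camp in both kinds of cells. The same holds for Mpo, Elane, Prtn3 and Ctsg, also at 0 UMIs in both. It nearly holds for Ltf, with 3 UMIs in each kind in eRT2, and Ngp, with 6 in neutrophils and 0 in monocytes. Elane was only 1.82 ± 0.46 higher (edgeR adjusted p = 0.0334), a call that was lost without scaling factors (log2 fold change 1.14, edgeR adjusted p = 0.0804) and without tumor MS3 (1.07, edgeR adjusted p = 0.274), and that held under 8 of 13 alternatives (adjusted p from 0.00072 to 0.766). Mpo (1.32 ± 0.51), Prtn3 (0.96 ± 0.57) and Ctsg (-0.12 ± 0.50) did not pass (edgeR adjusted p = 0.112, 0.283 and 0.894), although Mpo passed without tumor MS2 (2.56, edgeR adjusted p = 0.0484). Without the TMM scaling factors the split of all genes called changed from 450 higher and 335 lower to 253 higher and 1728 lower, and the median of all genes from -0.07 to -0.76, so that changes are to be read relative to it. The cells were grouped by other genes of the same libraries, and the p-values do not cover that step. Monocyte markers in these neutrophils summed to 977 to 5790 CPM, and neutrophil markers in these monocytes to 1315 to 3212 CPM, and their part in the result was not tested.

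Most companion genes that passed were higher in neutrophils as well. Of 15 specific and gelatinase granule genes tested, 8 were higher and 0 lower (median log2 fold change 2.26), among them Pglyrp1, a peptidoglycan-binding protein (5.23 ± 0.38), Fcnb, ficolin B (4.74 ± 0.57), and the matrix proteases Mmp9 (4.05 ± 0.89) and Mmp8 (3.23 ± 0.38). Of 8 protease inhibitors tested, 5 were higher and 1 lower (median 2.56), led by the stefins Stfa1 (6.95 ± 0.55) and BC100530 (6.10 ± 0.48). Of 11 alarmin partners, 5 were higher and 2 lower (median 0.09), with Wfdc21 (5.55 ± 0.34) and Lrg1 (4.60 ± 0.37) higher and the S100 genes S100a10 (-2.68 ± 0.36) and S100a4 (-2.60 ± 0.41) lower. Of 9 azurophil companions, 5 were higher and 1 lower (median 1.72), and Ctsc, the protease that activates the azurophil serine proteases, was the lower gene (-2.69 ± 0.48). Of 9 granulopoiesis regulators, 4 were higher and 2 lower (median 0.71), and of 4 receptors of granule proteins, 2 were higher and 1 lower (median 1.72), with the formyl peptide receptors Fpr1 (3.18 ± 0.43) and Fpr2 (3.11 ± 0.50) higher. Several of these genes (Mmp8, Mmp9, Wfdc21, Lrg1, Cxcr2 and Csf3r among them) were also markers that named the neutrophils, so their direction was partly fixed by the naming.

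The progenitor cells held the azurophil genes. In the granulocyte progenitor cluster of MS2 and MS3, Elane stood at 9587 and 9334 CPM, Prtn3 at 5472 and 7136 CPM, Mpo at 4704 and 3823 CPM and Ctsg at 2327 and 4350 CPM. All 4 were found together in 240 of 293 cells (81.9%) in MS2 and in 23 of 24 cells (95.8%) in MS3, and they took 2.21% and 2.46% of the cluster's UMIs. Specific granule genes were unequal there. Ltf had 103 CPM in MS2 and 0 UMIs in MS3 (24 cells), and Lcn2 had 148 and 92.9 CPM. Camp stood at 4466 and 1409 CPM, in 65.2% and 20.8% of cells, and so near Mpo and above Ctsg in MS2. Ngp stood at 980.5 and 325 CPM. The lymphoid cells of MS2 and MS3, read as background, had 1421 and 15.2 CPM of Camp and 619 and 10.2 CPM of Ngp. With every cell thinned to 500 UMIs, Ltf and Lcn2 were expected in 3.62% and 5.49% of the cluster's cells in MS2. Lymphoid cells of MS2 gave 5.68% and 5.95%, so neither gene stood above the background there. The cluster of MS3 gave 0% and 5.59%, against 0.394% and 1.06% of lymphoid cells. S100a8 was already present at 26263 and 7554 CPM, spread unevenly, with a median of 20 UMIs in a cell and a highest of 787 in MS2 and a median of 6 and a highest of 152 in MS3.

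Comparing all cells named progenitors with neutrophils of the same tumors (MS2 and MS3), 4 of the 10 genes were lower in progenitors (Ltf, Lcn2, Camp and Ngp) and 1 was higher (Ctsg), while 7.83% of 6641 genes were lower and 4.02% higher. The median log2 fold change was -6.00 over the 10 genes and 0.06 over all genes. Ltf fell by 7.46 ± 0.99 and Ngp by 7.29 ± 1.55 on the log2 scale (edgeR adjusted p = 0.000308 and 0.00745), and Ctsg rose by 2.70 ± 0.69 (edgeR adjusted p = 0.0203). S100a8 (-5.93 ± 2.22) and S100a9 (-6.07 ± 2.01) did not pass (edgeR adjusted p = 0.0974 and 0.0626), nor did Mpo (2.03 ± 0.75, edgeR adjusted p = 0.0943), Elane (1.0 ± 0.90, edgeR adjusted p = 0.499) or Prtn3 (0.74 ± 0.94, edgeR adjusted p = 0.647). With the granulocyte progenitor cluster alone, an alternative added after the data had been seen, 9 genes passed, 4 higher and 5 lower, while 19.9% of 3410 genes were higher and 22.9% lower. The azurophil genes Ctsg (5.07 ± 0.44), Mpo (4.45 ± 0.46), Elane (3.6 ± 0.56) and Prtn3 (3.33 ± 0.49) were then higher, the 4 specific granule genes and S100a9 (-4.58 ± 1.71) lower, and S100a8 (-4.17 ± 1.93) did not pass (edgeR adjusted p = 0.068). These fits rest on 2 tumors with 1 residual degree of freedom per gene before pooling. Without the TMM factors the split of all genes called in the comparison of all progenitors changed from 267 higher and 520 lower to 1568 higher and 369 lower, and the median of all genes from 0.06 to 0.77.

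Within neutrophils, all 4 azurophil genes were higher in immature than in late cells. Elane fell from 872 to 56.5 CPM between the immature (657 cells) and late (586 cells) neutrophils of MS2 and from 861 to 73.9 CPM between those of MS3 (82 and 71 cells). Prtn3 fell from 512 to 35.7 CPM and from 934 to 80.6 CPM, and Mpo from 277 to 46.1 CPM and from 136 to 20.1 CPM. Ctsg stood at 80.2 and 32.7 CPM in MS2 and at 90.6 and 13.4 CPM in MS3, the last of these from 2 UMIs. In both tumors every azurophil gene was higher in the immature cells, by 3.72 ± 0.38 for Elane, 3.65 ± 0.37 for Prtn3, 2.48 ± 0.40 for Mpo and 1.45 ± 0.43 for Ctsg on the log2 scale (edgeR adjusted p = 7.82e-19, 7.82e-19, 8.73e-08 and 0.0091). These 4 of 10 genes compare with 6.92% of 3295 genes that were higher and 7.71% that were lower, and the median log2 fold change was 0.71 over the 10 genes and -0.05 over all. With DESeq2 the call of Ctsg was lost (log2 fold change 1.73, adjusted p = 0.273), and it held under 6 of 8 alternatives (adjusted p from 0.00346 to 0.998). The fit rests on MS2 and MS3 with 1 residual degree of freedom per gene. The spread behind its small p-values is therefore mostly pooled over genes and hardly measured between animals.

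Alarmin and specific granule genes did not pass in this comparison. S100a8 was at 206547 and 230812 CPM in immature and late neutrophils of MS2 but at 140946 and 98246 CPM in MS3, so the tumors went opposite ways (log2 fold change 0.15 ± 0.96, edgeR adjusted p = 0.941). Camp was higher in immature cells in both tumors (54062 against 33973 CPM in MS2 and 39452 against 17584 CPM in MS3), as was Ngp (22879 against 16419 CPM and 48522 against 30603 CPM), yet neither passed (0.89 ± 0.68 and 0.54 ± 0.64, edgeR adjusted p = 0.43 and 0.643). Ltf (0.04 ± 0.43) and Lcn2 (0.19 ± 0.48) lay near 0 (edgeR adjusted p = 0.962 and 0.844). All 4 specific granule genes were carried together by 84.5% of immature and 87.9% of late cells in MS2, and by 89.0% and 81.7% in MS3.

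**Figure D2:**
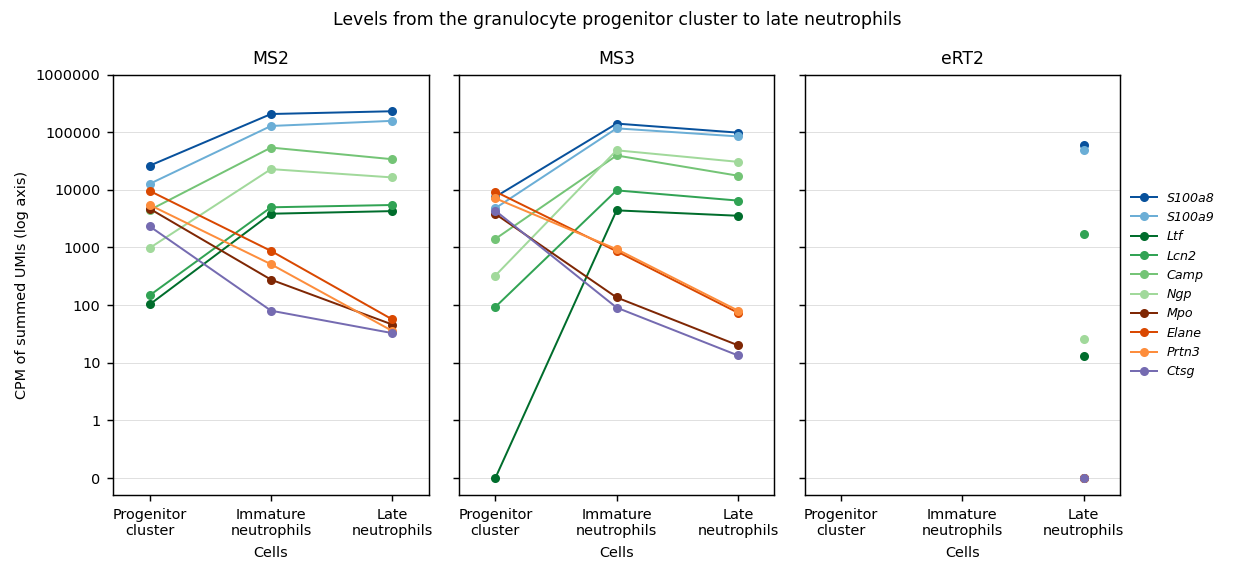
CPM of the 10 genes (log axis, with 0 drawn at the bottom tick) in the granulocyte progenitor cluster, immature neutrophils and late neutrophils of MS2, MS3 and eRT2, for groups of at least 10 cells. In MS2 and MS3 the azurophil genes (browns, oranges and purple) fell from progenitors to late neutrophils while alarmin (blues) and specific granule genes (greens) were lowest in progenitors. The neutrophils of eRT2 lay in the only neutrophil cluster of the eRT integration, named late, with the 4 azurophil genes and Camp overlaid at 0.

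The companion genes split by stage as well. Of 9 azurophil companions tested, 3 were higher in immature cells and 2 lower (median 0.42), with the serine protease gene Prss57 (4.75 ± 0.85), Ms4a3 (3.21 ± 0.41) and Nkg7 (2.23 ± 0.41) higher and Ctsc (-1.29 ± 0.42) lower. Of 16 specific and gelatinase granule genes, 2 were higher and 4 lower (median -0.10), Fcnb being higher (2.78 ± 0.35) and the matrix proteases Mmp8 (-2.02 ± 0.36) and Mmp9 (-1.85 ± 0.36) lower. Of 7 protease inhibitors, 1 was higher and 4 lower (median -1.08), among them Slpi, the secretory leukocyte protease inhibitor (-1.83 ± 0.39), and Stfa2l1 (-1.64 ± 0.38). Of 12 alarmin partners, 1 was higher and 2 lower (median -0.38), among them Il1b, the cytokine interleukin 1 beta (-1.95 ± 0.33). Of 10 regulators, 1 was higher and 3 lower (median -0.56), with Cebpe, a transcription factor of granulopoiesis, higher (1.12 ± 0.32) and the chemokine receptor Cxcr2 lower (-1.94 ± 0.39), and of 3 receptors, 0 were higher and 3 lower (median -1.24). Fcnb, Mmp9, Cxcr2, Csf3r, Cebpe, Stfa2l1 and Il1b were among the markers that named the stages, so their direction was partly fixed by the naming, while Mmp8 stood on the immature list and was lower in the immature cells.

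Against the progenitors, 14 of 16 specific and gelatinase granule genes were higher in neutrophils and 0 lower, counting all progenitor cells (median log2 fold change of progenitors against neutrophils -4.37), with Cd177 (-7.58 ± 0.75) and Itgb2l (-7.12 ± 0.69) at the far end. Of 10 azurophil companions 0 were higher in all progenitors and 2 lower (median -0.17), Hk3 (-2.81 ± 0.59) and Igsf6 (-2.48 ± 0.55). Alarmin partners (5 of 11 lower in progenitors, median -2.14), protease inhibitors (5 of 8, median -3.63), regulators (4 of 12, median -0.94) and receptors (3 of 4, median -3.72) had 0 genes higher in all progenitors. In these lists Cd177, Itgb2l, Mmp8, Mmp9, Anxa1, Wfdc21, Lrg1, Stfa2l1, Cxcr2 and Csf3r were also markers that named the neutrophils. Their direction against progenitors was partly fixed by that naming. With the granulocyte progenitor cluster alone, 4 of 10 azurophil companions were higher and 3 lower (median 0.67, against -0.04 over all 3410 genes). Those higher were Cst7, the protease inhibitor cystatin F (3.53 ± 0.40), Nkg7 (3.13 ± 0.33), Prss57, an azurophil serine protease (2.92 ± 0.37), and Ms4a3 (2.75 ± 0.33), of which Prss57 and Ms4a3 are also markers that named the progenitors. Ms4a3 stood at 1392 and 1656 CPM in that cluster of MS2 and MS3, against 129 and 163 CPM in neutrophils, and Nkg7 at 1349 and 975 CPM against 85.7 and 89.1 CPM. Those lower were Ctsc, the dipeptidyl peptidase that activates the granule proteases (-1.66 ± 0.55), Hk3 (-1.47 ± 0.47) and Igsf6 (-0.88 ± 0.37). Of the other lists, 15 of 16 specific and gelatinase granule genes, 9 of 11 alarmin partners, 6 of 6 protease inhibitors, 7 of 10 regulators and 3 of 3 receptors were then lower, and Hmgb1 (0.72 ± 0.29) and Myb (3.07 ± 0.36), a progenitor marker, were higher.

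**Figure D3:**
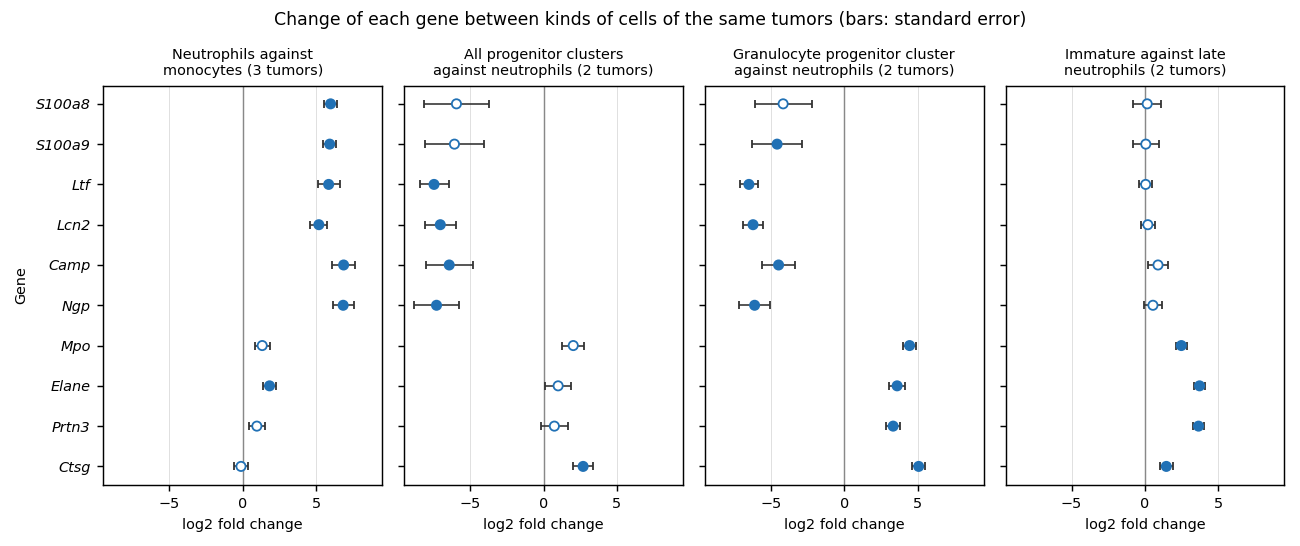
Log2 fold change of each gene in 4 comparisons between kinds of cells of the same tumors (x axis), with bars for the standard error and filled points where the edgeR adjusted p was under 0.05. The azurophil genes lie right of 0 in the granulocyte progenitor cluster and in immature neutrophils, and alarmin and specific granule genes lie right of 0 in neutrophils against monocytes and left of 0 in progenitors against neutrophils.

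Across single neutrophils, S100a8 was correlated with S100a9, Camp with Ngp and Elane with Prtn3, given as a description in which all cells of a tumor share a library. Pearson's r of log values between S100a8 and S100a9 was 0.80 and 0.51 in the immature and late neutrophils of MS2, 0.79 and 0.96 in those of MS3 and 0.83 in the late neutrophils of eRT2. Camp and Ngp gave 0.74 and 0.78 in MS2 and 0.85 and 0.88 in MS3, and Elane and Prtn3 0.70 and 0.77 in the immature cells of MS2 and MS3. Between groups the specific granule genes were unlike each other. In the immature cells of MS2 and MS3 (657 and 82 cells), Ltf and Elane gave -0.48 and -0.67 and Lcn2 and Elane -0.49 and -0.47. Ngp and Elane gave -0.30 and -0.20, and Camp was near 0 with Elane (-0.10 and -0.055) and with Prtn3 (-0.080 and 0.034). S100a8 and S100a9 share up to 57.8% of a cell's UMIs, so values of other genes scaled to a cell's total fall as the alarmins rise.

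Over 49 sums of a kind of cell in a tumor (at least 10 cells each) and 5093 genes, the genes with the pattern most like the mean of the alarmin genes were Retnlg (Pearson's r 0.97), Wfdc21 (0.94), Mmp8 (0.79), F630028O10Rik (0.79) and Hp (0.78). For the specific granule genes they were Wfdc21 (0.92), Fcnb (0.87), Cebpe (0.85), Retnlg (0.83) and Itgb2l (0.81). For the azurophil genes they were Ms4a3 (0.94), Fcnb (0.81), Myb (0.79), Prss57 (0.79) and Mcpt8 (0.78). F630028O10Rik and Hp are in none of the marker lists that named the cells.

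Between the subtypes, neutrophils could be compared only as eRT2 against MS2 and MS3. With a single eRT, its spread was assumed to be that of the other tumors, and subtype, Cre driver and animal cannot be told apart. In that comparison 7 of the 10 genes were lower in eRT (Ltf, Camp, Ngp, Mpo, Elane, Prtn3 and Ctsg) and 0 higher, while 2.26% of 3455 genes were lower and 7.03% higher. All 7 genes, at 0 to 6 UMIs in eRT2, passed the filter on low counts through the MYC spinal tumors alone. At 0 UMIs only a lower value in eRT was possible, so the count of 7 is not read as a result. The median log2 fold change was -8.80 over the 10 genes and -0.28 over all, and 5 of the fitted values rest on counts of 0. From the CPM ratios against the lower MYC spinal tumor, with these 5 genes set at a limit of 3 UMIs, the median over the 10 genes was -3.60. Counted against a limit of 3 UMIs in the neutrophils of eRT2, Camp was at least 2280-fold lower than in MS3, the lower of the MYC spinal tumors, Elane at least 38.6-fold, Prtn3 at least 22.8-fold, Mpo at least 6.42-fold and Ctsg at least 4.28-fold lower than in the lower of them. That limit covers counting error and not the rule that unlisted genes may have been in up to 2 cells. Ngp was 771-fold lower than in MS2, the lower of them for that gene, from 6 UMIs, and Ltf had 12.9 CPM from 3 UMIs (95% Poisson interval 2.66 to 37.7 CPM) against 4015 CPM. The call of Ctsg was lost with DESeq2 (adjusted p = 0.146) and held under 4 of 8 alternatives (adjusted p from 0.0205 to 0.146).

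S100a8 (-1.36 ± 0.98), S100a9 (-1.15 ± 0.96) and Lcn2 (-1.78 ± 0.90) did not pass (edgeR adjusted p = 0.498, 0.585 and 0.258). Each stood lower in eRT2 than in both MYC spinal tumors, by 1.99-fold, 2.04-fold and 3.04-fold against the lower of them. Depth was 999, 1905 and 1008 UMIs in the median neutrophil of MS2, MS3 and eRT2. The stage of the cells moved with these values. All 201 neutrophils of eRT2 were in the late cluster of their integration. That was its only neutrophil cluster, so no eRT neutrophil could be named immature. It also held the 4 and 3 neutrophils of eRT1 and eRT3, which carried Camp, Ngp and Ltf. The immature marker list summed to 758 CPM in the neutrophils of eRT2 against 3784 and 3557 CPM in MS2 and MS3, with Fcnb in 0% of cells. The late list summed to 49311 CPM against 21097 and 7169 CPM. With late neutrophils alone, an alternative added after the data had been seen, 3 genes were lower (0.597% of 2679 genes were lower and 3.32% higher), Camp, Ngp (-9.63 ± 2.00, edgeR adjusted p = 0.000266) and Ltf (-8.14 ± 1.72, edgeR adjusted p = 0.000313), whereas Mpo, Elane and Prtn3 did not pass (edgeR adjusted p = 0.541, 0.0876 and 0.232). Ctsg was not tested there. Camp, Ngp and Ltf, at 0, 6 and 3 UMIs in eRT2, again passed the filter on low counts through the MYC spinal tumors alone. They could hardly come out other than lower, so this count of 3 is not read as a result either. Late clusters were named within the integration of each subtype and were unlike in immature markers. That of the MYC spinal tumors had 10 immature beside 11 late markers, and that of eRT had 2 beside 11. The part of stage in these values was not tested.

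Other granule genes were compared between eRT2 and the MYC spinal neutrophils too, beside the shares of all genes given above. Genes at 0 or 1 UMI in eRT2, Fcnb, Itgb2l and Serpinb1a among them, passed the filter on low counts through the MYC spinal tumors alone. Such genes could hardly come out other than lower, so the counts of lower genes are not read as a result. Of 16 specific and gelatinase granule genes 5 were lower and 0 higher (median -1.40), including Fcnb (0 UMIs in eRT2, against 372.5 and 371.7 CPM in MS2 and MS3), Itgb2l (0 UMIs, against 111 and 95.2 CPM) and the NADPH oxidase subunit Cybb (-4.20 ± 1.11). Of 8 protease inhibitors 5 were higher and 1 lower (median 2.49), with BC100530 (3.81 ± 0.85), Stfa2 (3.49 ± 0.88) and Stfa2l1 (3.49 ± 0.82) higher and Serpinb1a, an inhibitor of elastase, proteinase 3 and cathepsin G, lower (1 UMI in eRT2, against 282 and 627 CPM in MS2 and MS3). Il1b was the 1 gene called of 12 alarmin partners and was higher (5.59 ± 0.87, list median -0.41). Azurophil companions (1 of 9 higher and 1 lower, median -1.12), regulators (1 of 11 higher and 1 lower, median 0.35) and receptors (2 of 4 higher and 0 lower, median 1.53) gave Srgn, Cxcr2, Fpr1 and Tlr2 as higher and Ms4a3 and Cebpe as lower.

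The change from monocytes to neutrophils was compared between the subtypes by an interaction term (eRT2 against MS2 and MS3). None of the 10 genes passed with edgeR (0.0189% of 5279 genes were higher and 0.0379% lower, 3 genes in all), while 533 genes had an unadjusted p under 0.05, and DESeq2 also called 0 of the 10. Among the members, Lcn2 alone had an unadjusted p under 0.05 (-1.96 ± 0.86, edgeR adjusted p = 0.482). The differences for Camp, Mpo, Elane, Prtn3 and Ctsg could not be estimated, since eRT2 had 0 UMIs of them in neutrophils and in monocytes.

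Monocytes held alarmin transcripts at levels that differed widely between tumors. S100a8 in monocytes stood at 0, 11143 and 1727 CPM in MS1, MS2 and MS3 and at 201, 1292 and 0 CPM in eRT1, eRT2 and eRT3. The background was read from tumor cells and lymphoid cells, which should lack the gene. In tumor cells S100a8 stood at 1.75, 7752 and 266 CPM in MS1, MS2 and MS3 and at 147, 367 and 1.98 CPM in eRT1, eRT2 and eRT3. Lymphoid cells gave 0.474, 7438, 211, 345, 480 and 0 CPM in the same order, and in eRT1 the 345 CPM came mostly from 1 cell with 85.8% of the 113 UMIs. MS2 was highest in all 3 kinds of cells. MS1 and eRT3, with 5 and 3 neutrophils, were at or near 0 in all 3, and eRT1, with 4 neutrophils, was not. Across kinds of cells S100a8 kept 1 order in both MYC spinal tumors with progenitors, from neutrophils over the granulocyte progenitor cluster (26263 CPM in MS2 and 7554 CPM in MS3) and monocytes to tumor cells and lymphoid cells. The last step of that order was small, and in MS2 a single tumor cell held 231 of the 351 UMIs found in 16 tumor cells.

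Shares of cells with a UMI were compared at an equal depth of 500 UMIs per cell, leaving out 296 monocytes, 176 lymphoid cells and 0 tumor cells of MS2 with fewer. In MS2, S100a8 was then expected in 68.9% of monocytes, 65.8% of lymphoid cells and 53.9% of the 16 tumor cells, so monocytes stood little above the background. In MS3 the shares were 17.3%, 4.85% and 5.55%, in eRT2 they were 21.4%, 12.7% and 10.2%, and in eRT1 they were 7.84%, 3.23% and 5.04%. In MS3 and eRT2 monocytes stood above both background kinds, as in CPM. In eRT1 no order is read, since lymphoid cells stood above monocytes in CPM (345 against 201) and tumor cells above them in the share before thinning. Before thinning, 82.8%, 43.1%, 40.3% and 25.9% of the monocytes of MS2, MS3, eRT2 and eRT1 had a UMI of S100a8, against 81.3%, 35.5%, 35.3% and 30.9% of tumor cells, at median depths of 818, 2195, 1302 and 3116 UMIs in monocytes and 2850.5, 4391, 2049 and 6141.5 UMIs in tumor cells.

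Lcn2 and Prtn3 stood further above the background in monocytes than S100a8 did in some tumors. At 500 UMIs, Lcn2 was expected in 6.89% of the monocytes of eRT2 against 0.958% of lymphoid cells and 1.23% of tumor cells, and in 1.77% of those of eRT1 against 0.313% and 0.153%. Lcn2 came to 13.8% of the S100a8 UMIs in the monocytes of eRT2 and 13.9% in those of eRT1, but to 2.80% and 4.36% in the neutrophils of these tumors. In MS2 and MS3 the ratio was alike in both kinds of cells, at 2.82% and 5.56% in monocytes and 2.39% and 6.83% in neutrophils. Neutrophil markers moved with Lcn2 among the monocyte clusters of eRT2. The cluster with 8 neutrophil markers beside 10 monocyte markers held Lcn2 in 23.9% of its 138 cells from eRT2, against 13.9% and 4.21% in the clusters with 2 and 1 neutrophil markers, and the part of these markers in the result was not tested. Prtn3 was expected in 15.9% of the monocytes of MS2 against 2.96% of lymphoid cells and 0.51% of tumor cells, and in 5.88% of those of MS3 against 0% and 0.0397%. Camp in MS2 came to 203.6% of Ngp in monocytes, 229.5% in lymphoid cells and 225.2% in neutrophils, and was expected at 500 UMIs in 29.9% of monocytes and 33.3% of lymphoid cells.

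Within the monocytes the azurophil genes were uneven between clusters. In tumor MS3, Elane was found in 26.3% and Prtn3 in 39.5% of the 76 cells of a proliferating cluster (Mki67 and Top2a among its leading genes), in 0% and 2.52% of the 119 cells of a cluster led by Vcan and F13a1, and in 0% and 0% of the 88 cells of the third. In MS2 the same clusters gave 34.3% and 46.0% (796 cells), 4.41% and 4.74% (929 cells), and 20.7% and 29.5% (352 cells). The proliferating cluster was highest for both genes in both tumors. These shares were not brought to equal depth. Over the MYC spinal tumors the median cell had 1463 UMIs in the proliferating cluster, 587 in the cluster led by Vcan and F13a1, and 977 in the third. The part of depth in this order was not tested.

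**Figure D4:**
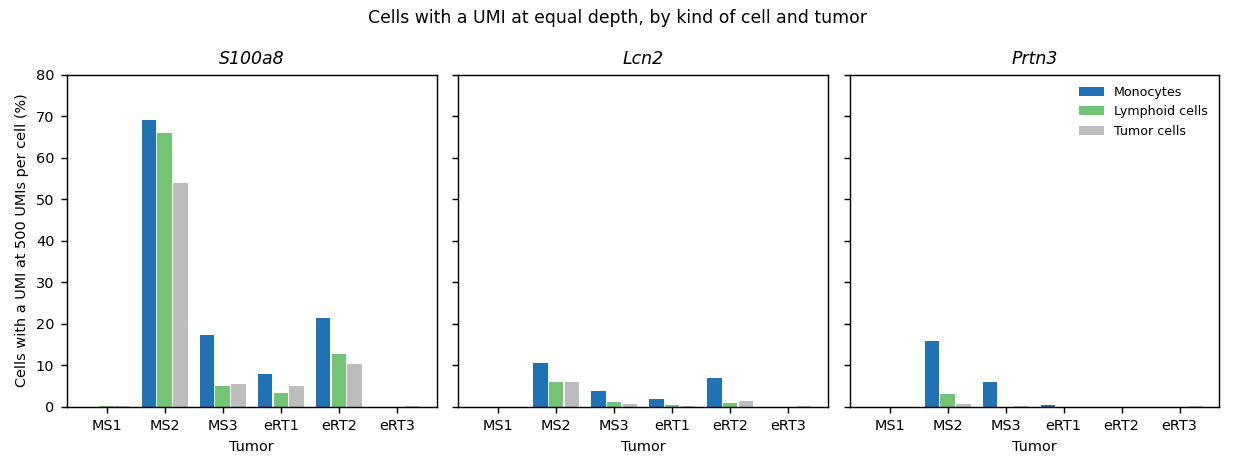
Percent of cells expected to hold a UMI of S100a8, Lcn2 or Prtn3 with every cell thinned to 500 UMIs (y axis), in monocytes, lymphoid cells and tumor cells of each tumor (x axis). S100a8 is near the background kinds in MS2 and above them in MS3 and eRT2, and Prtn3 is seen mainly in the monocytes of MS2 and MS3.

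Monocytes of eRT and MYC spinal tumors were compared over all 6 tumors. Only S100a8, S100a9 and Lcn2 passed the filter on low counts, and 0 of these 3 were called (0.033% of 6057 genes were higher and 0.545% lower in eRT, with 598 genes at an unadjusted p under 0.05), nor did DESeq2 call any. S100a8 was -2.95 ± 2.11, S100a9 -2.62 ± 2.06 and Lcn2 -0.87 ± 1.40 on the log2 scale (edgeR adjusted p = 0.724, 0.756 and 0.906), with a median of -2.62 against -0.01 over all genes, and the tumors of both subtypes overlapped. With every gene of at least 1 UMI kept, the other 7 genes were called lower in eRT, where each of them had 0 to 3 UMIs in a monocyte sum. MS1 also had 0 UMIs of them, so these values rest on MS2 and MS3. Genes at 0 UMIs in eRT could only come out lower there, so these calls are not read as a result. Of the companion lists, Cd36, a scavenger receptor, was the 1 gene called and was higher in eRT (4.56 ± 0.76, edgeR adjusted p = 0.0406). That call was lost with any tumor left out (edgeR adjusted p = 0.0677 to 0.214), with strain as a covariate (0.685), without the highest Scrublet scores (0.0511) and at resolution 1.6 (0.0534).

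Most transcripts of the alarmin and specific granule genes in a tumor came from its neutrophils. For S100a8 the share of the tumor's UMIs found in neutrophils was 99.2%, 87.3% and 79.2% in MS1, MS2 and MS3 and 57.7%, 85.8% and 92.8% in eRT1, eRT2 and eRT3, although neutrophils were 0.0746% to 21.6% of the cells. In MS1 a single cell of the 5 named neutrophils held 366 of the 372 UMIs. Camp ranged from 66.3% in MS1, where 34 of 104 UMIs came from 4 tumor cells, to 99.6% in eRT3. Azurophil genes were distributed otherwise. In MS3 the granulocyte progenitor cluster, 24 of 6740 cells, held 82.1% of Mpo, 69.0% of Elane, 57.1% of Prtn3 and 83.6% of Ctsg UMIs, and in MS2 it held 32.7%, 41.6%, 31.03% and 32.8%. Prtn3 had the lowest of these shares in both tumors, with 21.9% of its UMIs in the neutrophils and 15.1% in the monocytes of MS3, and 17.7% in the monocytes of MS2.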

How the data were processed

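Tumors were profiled with droplet-based single-cell RNA-seq (10x, 3′ v2). The authors aligned reads to mm10 with Cell Ranger 2.0.2 and deposited 1 table of raw UMI counts per tumor, with genes as rows and cells as columns. All 6 tables were used. Cell columns carried no barcodes, so barcodes shared between libraries could not be counted. The members and the gene lists were chosen with earlier results of these data known.

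Cells under 200 genes or above 25% mitochondrial UMIs were left out. Integration of each subtype used Seurat 5.3.0 (anchors, 2000 variable genes without the 10 members, 30 dimensions, 20 neighbors, resolution 0.8), and a cluster was named where 3 or more of a list's markers reached 10% of cells and a log2 fold of 1. Scrublet marked 21 cells (0.0948%) and was taken not to have worked, so no doublets were removed beyond the study's own gate in the sort, and leaving out the 843 highest scores was an alternative. Counts were pooled per kind of cell and tumor (at least 10 cells) and tested with edgeR 4.0.16 (quasi-likelihood, TMM, filterByExpr, Benjamini-Hochberg adjusted p under 0.05), after tests on simulated data. Within-tumor comparisons carried the tumor, which is a single animal, as a block. DESeq2 1.42.0 was an alternative. Standard errors were the log2 fold change over the square root of F. Each mouse gave a separate tumor, and the spread behind the p-values was pooled over genes. In comparisons with the fewest tumors the spread between animals was hardly measured for a single gene. The p-values do not cover the clustering.

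CPM intervals are exact Poisson and shares exact binomial limits at 95%, for counting error only, and 3 UMIs were the limit for a count of 0. Shares at 500 UMIs are exact expectations of thinning each cell. The text names the 10 genes, up to 4 called genes per list and comparison with the largest change, and the 5 genes most alike per group, by Pearson's r of log2(CPM + 10) among genes reaching 100 CPM. Correlations across cells used log(1 + UMIs per 10000) and genes found in at least 20% of cells. RefSeq promoters matched 10 of 10 members.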

Additional observations from a re-analysis of the deposited data

Results flagged for a closer look

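A cluster of the MYC spinal integration was given no name, because as many progenitor markers (5) as B cell markers (5) passed the naming rule. It held azurophil transcripts in tumor MS2. Its 785 cells there had 2024 CPM of Mpo, 2490 CPM of Elane, 2101 CPM of Prtn3 and 902 CPM of Ctsg, and 348 of them (44.3%) held all 4. It accounted for 51.1% of the Mpo, 39.3% of the Elane, 43.3% of the Prtn3 and 46.2% of the Ctsg UMIs of that tumor. These cells entered no comparison, and whether they were doublets was not tested.

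The neutrophils of eRT1 and eRT3 entered no comparison between groups, being 4 and 3 cells. Those of eRT1 had 216202 CPM of S100a8, 115803 of S100a9, 5445 of Ltf, 9429 of Lcn2, 11819 of Camp and 64143 of Ngp. Those of eRT3 had 211587 CPM of S100a8, 152708 of S100a9, 7872 of Ltf, 11650 of Lcn2, 72103 of Camp and 75882 of Ngp. In both tumors the levels of Ltf, Camp and Ngp were far above those of eRT2, the only eRT in the comparison.

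The change from monocytes to neutrophils differed between eRT2 and the MYC spinal tumors MS2 and MS3 for 3 genes outside the 10, by the interaction term with edgeR, which rests on 1 eRT. The difference (eRT minus MYC spinal, log2) was -4.80 for Chil3, -7.75 for Inhba and 5.66 for Meg3. With stricter cells, without the highest Scrublet scores and at resolution 1.6, 0 genes passed.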

How the results depend on the processing

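The same tumor, a single animal, pairs the kinds of cells compared within tumors. Without that pairing (no replicate block), 0 genes and 0 of the 10 members were called among neutrophils against monocytes, progenitors against neutrophils and immature against late neutrophils (edgeR; 551, 855 and 169 genes had an unadjusted p under 0.05, and with the block DESeq2 called 441 and 79 genes in the last 2 comparisons), and S100a8, S100a9 and Ltf turned to -0.053, -0.10 and -0.0016 (log2) in the last.

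For neutrophils against monocytes, 785 genes became 1981 without TMM factors, 1339 with every gene and 163 at resolution 1.6, and 301 to 740 (6 to 8 members) with a tumor left out (301 without MS2, 522 without MS3); Ctsg turned to 0.11 with DESeq2 and 1.09 at resolution 1.6 and ran from -0.86 to 1.01 with a tumor left out (1.01 without MS2), and Prtn3 from -0.18 to 2.17 (-0.18 without MS3). For progenitors against neutrophils, 787 genes became 1937 without TMM factors, 441 with DESeq2, 391 with stricter cells (at least 500 genes, at most 10% mitochondrial UMIs), 1420 at resolution 0.4 (10 members), 1257 with members kept for clustering (8 members) and 1458 with the granulocyte progenitor cluster alone (9 members), and resolution 1.6 gave 8 members. Of these alternatives, the share of all genes called is given for the granulocyte progenitor cluster alone (19.9% of 3410 genes higher and 22.9% lower). The other member counts have no such share beside them and are not read as results. For immature against late neutrophils, 482 genes became 301 without TMM factors, 79 with DESeq2 and 152 with stricter cells. Splits of calls by direction moved most without TMM factors and are given with the results; in the last comparison they went from 228 higher and 254 lower to 175 and 126.

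For eRT against MYC spinal neutrophils, 321 genes became 177 with DESeq2, 129 with stricter cells, 178 with members kept for clustering and 105 (3 members) with late neutrophils alone. For monocytes between subtypes, 35 genes became 139 with DESeq2, 206 (7 members) with every gene, and 0 with strain as a covariate, at resolution 1.6 and with any tumor left out (0 to 0), and Lcn2 ran from -3.27 to 0.61 with a tumor left out (0.61 without MS2). For the interaction, 3 genes became 65 with every gene, 100 with members kept, and 0 with stricter cells, without the highest Scrublet scores and at resolution 1.6. There DESeq2 gave Mpo 1.15, Elane 0.77 and Prtn3 1.64 (with 0 UMIs in eRT2, no bound), every gene S100a9 -0.046, stricter cells S100a8 -0.26, S100a9 -0.48 and Ngp -0.39, no highest scores S100a8 -0.12 and S100a9 -0.21, and resolution 1.6 S100a8 -0.57, S100a9 -0.78 and Ctsg -1.09, all turned in sign. The difference in neutrophil share ran from -8.58 to 2.06 percentage points with a tumor left out. Where no construction is named, the cause was not tested. For single genes, 410 other values kept direction and side of the threshold, 23 gained and 29 lost the call and 17 turned. Leaving out a tumor was not possible in the comparisons with 2 tumors or 1 eRT, nor strain as a covariate in neutrophils between subtypes, and resolution 0.4 gave no stages. Depth limits the counts of 0 in eRT2 to 12.9 CPM.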
